A study of Mus musculus with 12 samples.

Results

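Differences between a brown and a white fat cell line that were held through differentiation were measured over all 12 arrays of the study, 6 of brown and 6 of white cells. For each gene, the line difference was the mean of the difference before differentiation and the difference after it, brown minus white, with stage as a blocking factor. It was taken on log2(signal + 16), a log scale on which 1 unit is about a doubling for bright genes and less than the ratio of signals for dim ones. Of 18194 genes with a probe set of their own, 13753 were tested, those with a signal over the 40th percentile (32.9 to 41.2, depending on the array) on 3 arrays or more. A gene was called alike at both stages if it passed the test for the line difference and the test at each stage, differed in the same direction by at least 1 log2 unit at each, and had a 95% confidence interval of the difference between the stages inside -1 to 1. This class held 346 of the 13753 genes, 173 higher in brown and 173 higher in white.

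The white cells were 3T3-L1, an established mouse preadipocyte line, and the brown cells were a mouse brown adipocyte line labelled BFC. Preadipocytes of both lines were harvested at day 0, and adipocytes at day 10 for the white line and day 8 for the brown line, giving 4 groups of 3 arrays. The brown line was kept in DMEM with 10% FBS and the white line in DMEM with 10% fetal calf serum. Both were induced with IBMX (0.5 mM) and dexamethasone (1 µM) for 3 days, starting 2 days after they became confluent. The white line received insulin at 1 µg/mL for these 3 days and 2 more, without indomethacin or T3. The brown line received 125 µM indomethacin during induction, and 20 nM insulin and the thyroid hormone T3 at 1 nM until harvest. Each cell type was represented by 1 line, so the 6 arrays a side are arrays of that line and carry no spread between lines, and strain, sex, culture history and medium cannot be told apart from brown against white. The labels do not say whether the 3 arrays of a group came from separate cultures, so the p-values at each stage and between stages measure the spread between arrays. With stage only as a block, the error of the line difference also takes in how unequal the 2 stage differences were.

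Brown and white fat cells form from mesenchymal precursors of different embryonic origin. Brown fat of the back shares precursors with muscle of the trunk, and its precursors are known for the transcription factors Ebf2, Zic1 and Prdm16, whereas precursors of white depots carry other patterning factors. Hox genes and similar factors mark the position of a cell along the body and often keep their expression in culture, while adipocyte genes such as Pparg, Adipoq and Fabp4 are switched on during differentiation in both cell types.

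Arrays of the same group correlated on log2(signal + 16) at Pearson's r of 0.978 to 0.982, and arrays from different groups at 0.885 to 0.935. The ratio of 3' to 5' control signal of beta-actin moved with stage more than with line, with 1.36 to 1.56 before and 2.08 to 2.48 after differentiation. The brown cells labelled preadipocytes already had high adipocyte genes: Adipoq, the hormone adiponectin, was at 18695 ± 2319 (SD, n = 3 arrays) in them against 31.9 ± 16.4 in white preadipocytes, and at 26332 ± 497 and 32117 ± 2551 in brown and white adipocytes. Fabp4, the fatty acid binding protein of fat cells, was at 27421 ± 2567 in brown preadipocytes and 8050 ± 433 in white ones. At day 0 the brown cells thus had higher levels of both genes than the white cells, while Fabp4 was well above the percentile in both. Before differentiation therefore names the day 0 label here, and does not mean brown cells without adipocyte gene expression.

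The line accounted for 35.0% of the variance of log2 signal summed over the tested genes, the stage for 41.3%, the line by stage term for 14.9% and the spread within groups for 8.79%. With limma on the line difference, 3638 genes (26.5% of those tested) were higher in brown and 2934 (21.3%) higher in white at a Benjamini-Hochberg adjusted p under 0.05. The median line difference over all tested genes was 0.04. Such a call alone does not mean that a difference was held: the difference between the stages passed its own test for 7026 genes (51.1%), and 1476 genes (10.7%) were called in opposite directions at the 2 stages. The stage differences, which share no array, had a Pearson correlation of 0.40 across genes, given as a description since genes are not independent. A set of 973 genes (7.07%) passed the line test and both stage tests with at least 1 log2 unit the same way at each stage, 569 of them higher in brown and 404 in white. The 346 alike genes are those of the 973 whose interval also lay inside the limit, 1.26% of all tested genes in each direction. The balance of directions rested on how arrays were scaled. With arrays set to equal medians, the median over all genes moved to -0.14, 2432 genes were called higher in brown and 4302 higher in white (36.1% of calls in brown, against 55.4%), and the alike class held 112 and 271. With arrays scaled to the hybridization controls, the median was 0.14 and 4388 and 2255 were called (66.05% in brown).

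**Figure D1:**
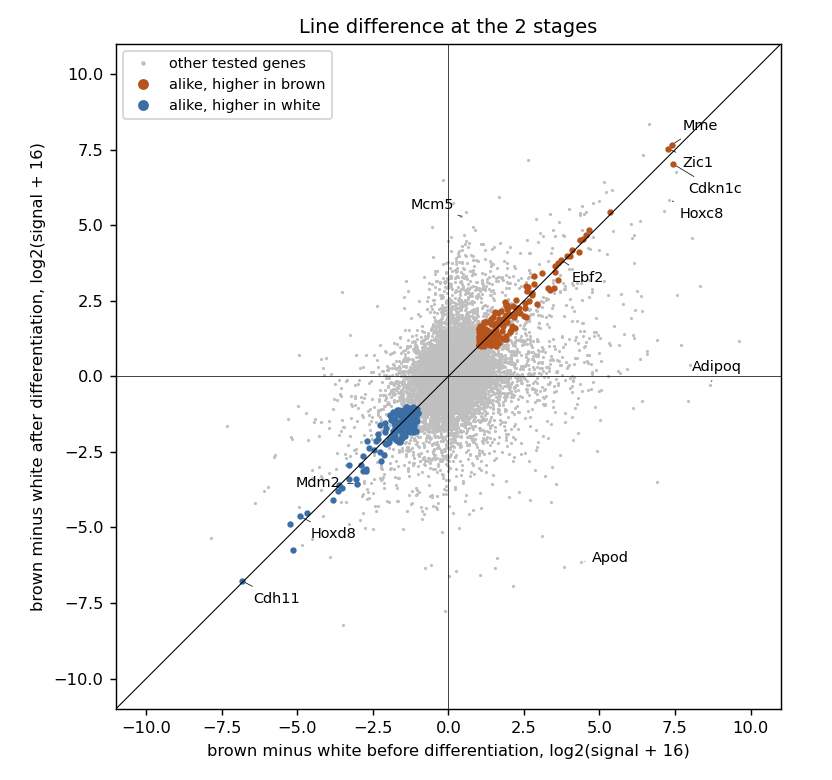
Line difference of each of the 13753 tested genes before (horizontal axis) and after differentiation (vertical axis), on log2(signal + 16), with the diagonal of equal difference. The 173 alike genes higher in brown and the 173 higher in white lie along the diagonal, from Mme at 7.39 and 7.66 to Cdh11 at -6.83 and -6.77, while Adipoq and Apod lie far from it.

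The limits fell within a continuous range. Just inside them, Prrx1 differed by -1.002 before and -1.22 after differentiation and Pfkfb2 by 1.07 and 1.01. Just outside them, Igf2bp1 differed by -0.9986 and -1.12 and Pgam1 by -1.40 and -0.998. The median line difference was 1.49 among the alike genes higher in brown and -1.499 among those higher in white, and 22 and 13 of them reached 3 log2 units. In all 346 the arrays of the lines did not overlap at either stage, which also held, in 1 direction, for 4464 (32.5%) of all tested genes. For some genes the interval nearly reached the limit, as for Hoxd8 at -0.45 to 0.98, and these left the class under other settings. Ebf2, Psmb9, Slc35e3, Arhgdib, Foxd1 and Id3 met every condition under each of 24 alternative settings, which include leaving out each array. Hhex did so under 9, Timp3 under 10, Hoxd8, Vstm2a and 3110039M20Rik under 11, Cpm under 12, Trmt9b under 13 and Thy1 under 15, and Lyz2 only under 8.

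Mme, Zic1 and Cdkn1c had the largest line differences of the alike genes higher in brown. Mme encodes neprilysin, a peptidase on the cell surface. Its signal was 3675, 3435 and 3579 in brown preadipocytes and 5606, 5988 and 5701 in brown adipocytes, against 1.79, 2.93 and 12.8 in white preadipocytes and 11.1, 14.8 and 11.9 in white adipocytes. Every brown array was high and no white array rose above the 40th percentile, so the white signals give only a bound, and Mme was at least 107-fold higher in brown before and at least 154-fold higher after differentiation. Such bounds set the mean of the bright group against that percentile, or the dim signal where it was higher. The line difference was 7.53 ± 0.12 (SE, limma adjusted p = 8.82e-12) and differed by 0.27 between the stages (95% interval -0.21 to 0.75). With white signals below the percentile at both stages, this interval depends on the 16 added to each signal.

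Zic1, a zinc finger factor of the trunk mesoderm used as a marker of classical brown fat, was at 4396, 4134 and 5092 in brown preadipocytes and 3984, 3784 and 3600 in brown adipocytes. White preadipocytes were at 21.1, 9.86 and 10.2 and white adipocytes at 3.78, 7.89 and 2.18. The lines were apart at both stages, with brown at least 135-fold higher before and at least 101-fold higher after. The line difference was 7.41 ± 0.12 (SE, limma adjusted p = 8.82e-12), and a second probe set of Zic1 gave 5.42. Cdkn1c, the imprinted cell cycle inhibitor p57, was at 3362, 3197 and 3358 and then 7593, 7981 and 7471 in brown cells, against 2.65, 3.54 and 2.93 and then 33.3, 44.5 and 53.3 in white cells. It rose over differentiation in both lines, in white from below the percentile to about its level, so its size there is not given, and the line difference was 7.23 ± 0.10 (SE, limma adjusted p = 8.82e-12). Of the 32 tested imprinted genes, 8 (25%) were higher in brown and 14 (43.8%) in white, against 26.5% and 21.3% of all genes, with a median of -0.22, and Cdkn1c was the 1 alike member. Grb10 (7.14 before and 5.48 after) and Ndn (-3.28 and -4.87) differed strongly at both stages but by unequal amounts.

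Ebf2, a factor that sets the brown fat programme in precursors, differed by 3.73 before and 3.85 after differentiation. White preadipocytes were at 207, 228 and 218 and white adipocytes at 358, 376 and 407. Brown preadipocytes were at 3062, 3173 and 3022 and brown adipocytes at 5517, 5858 and 5739. Ebf2 was thus measured above the percentile in both lines, it was lower on every white array, and its line difference was 3.79 ± 0.06 (SE, limma adjusted p = 1.16e-11). Its other 2 probe sets gave 3.12 and 4.43. Ppargc1a, a coactivator of mitochondrial and thermogenic genes, was at 43.0, 30.1 and 29.9 and then 344, 317 and 318 in white cells and at 518, 453 and 519 and then 2392, 2334 and 2690 in brown cells. It rose in both lines and stayed apart by 3.36 before and 2.86 after differentiation, with a line difference of 3.11 ± 0.11 (SE, limma adjusted p = 6.30e-09), and 4 other probe sets gave 2.51 to 2.94.

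**Figure D2:**
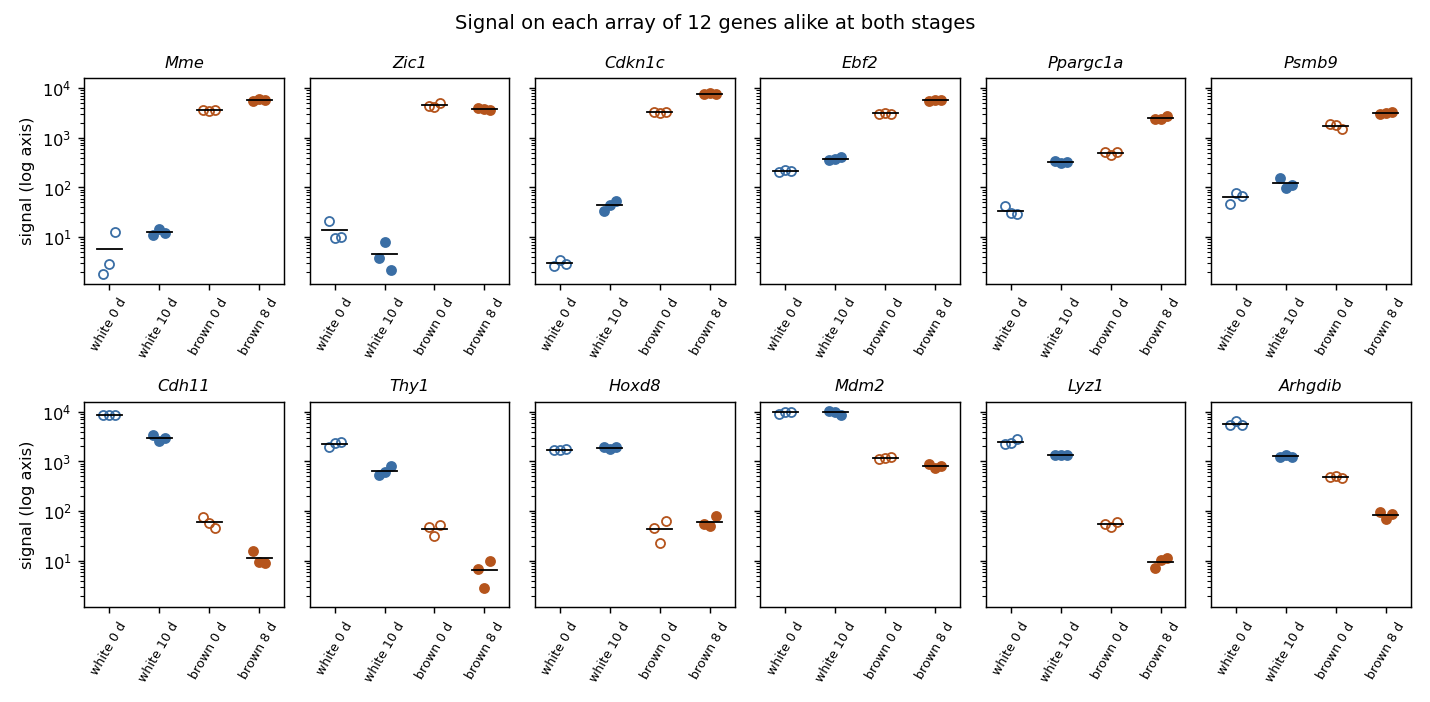
Signal of 12 alike genes on each of the 12 arrays (log axis), with white cells in blue, brown cells in orange, open circles at day 0, filled circles at day 10 or 8 and a bar at the mean of 3 arrays. In the upper row every brown array of a stage lies above every white one of that stage and in the lower row below it, from Mme at 3435 to 5988 against 1.79 to 14.8 down to Arhgdib at 69.4 to 509 against 1205 to 6420.

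Of 33 tested marker genes of brown and beige fat, 20 (60.6%, against 26.5% of all genes) were higher in brown and 1 was higher in white, with a median of 0.88 beside 0.04 for all genes. Zic1, Ebf2 and Ppargc1a were the 3 alike members. Prdm16, another factor of the brown programme, was at 428 ± 39.7 and 696 ± 27.4 in brown cells and at 6.39 ± 7.06 and 1.76 ± 1.02 in white cells (SD, n = 3), and its difference grew from 4.35 to 5.33. Its 3 other probe sets above the percentile gave 0.47 to 1.80. Genes of the thermogenic machinery were not held apart in this way: Ucp1, the uncoupling protein, differed by 0.35 before and 4.16 after differentiation, Cidea by -0.17 and 6.51, and Chchd10 by 0.87 and 4.86. Of 18 tested white fat markers, 6 (33.3%) were higher in brown and 3 (16.7%) in white, near the shares of all genes, and Psat1, an enzyme of serine synthesis, was the 1 alike member at -1.39 ± 0.07 (SE, limma adjusted p = 7.95e-08). By at least 1 log2 unit at both stages, 3 of these markers, Hoxc8, Hoxc9 and Hoxc10, were higher in brown and 2 in white. Tbx15, a factor of some white depots, differed by 0.01 before and -1.11 after. Of 30 tested core adipocyte genes, 17 (56.7%, against 26.5% of all genes) were higher in brown and 0 in white. None of the 30 was alike, beside 2.52% of all tested genes. The median difference of these 30 was 1.97 before and -0.21 after differentiation. Lrg1, the secreted protein named in the title of the study, was low in both preadipocytes, at 3.49 ± 1.75 in white and 4.67 ± 2.28 in brown, and reached 167 ± 9.62 in white and 1031 ± 47.4 in brown adipocytes, so the line difference passed the test after differentiation (2.52) and not before it (0.08).

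Cdh11 had the largest line difference of all alike genes higher in white. It encodes cadherin 11, an adhesion protein of mesenchymal cells. Its signal was 8520, 8421 and 8714 in white preadipocytes and 3354, 2604 and 2954 in white adipocytes, against 74.8, 58.8 and 46.8 in brown preadipocytes and 15.6, 9.62 and 8.94 in brown adipocytes. It fell over differentiation in both lines, in brown to below the percentile, and white stayed above brown on every array of each stage. The line difference was -6.80 ± 0.11 (SE, limma adjusted p = 8.82e-12), and another probe set gave -4.83. Of 29 tested integrins and cadherins, 4 (13.8%) were higher in brown and 12 (41.4%) in white, against 26.5% and 21.3% of all genes. The median of these 29 was -0.40, beside 0.04 for all genes. Cdh13 (-2.80 before and -1.94 after) and Itgbl1 (-2.58 and -1.79) were also lower in brown by over 1 log2 unit at both stages.

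Thy1, the surface protein CD90 of fibroblasts and mesenchymal progenitors, was at 1954, 2314 and 2420 and then 536, 616 and 811 in white cells, and at 47.7, 32.1 and 53.8 and then 6.86, 2.91 and 9.84 in brown cells. White was higher on every array, at least 16.5-fold after differentiation, and the line difference was -5.05 ± 0.14 (SE, limma adjusted p = 1.11e-09). Among 23 tested progenitor surface markers, 6 (26.1%) were higher in brown and 7 (30.4%) in white, near the 26.5% and 21.3% of all genes, with Thy1 the 1 alike member. Cspg4, the proteoglycan NG2, went the other way, with 2.62 ± 1.29 and 2.76 ± 0.911 in white and 284 ± 37.5 and 859.5 ± 88.8 in brown cells (SD, n = 3). Pdgfra, a receptor of adipocyte precursors, was higher in brown before (1.08) and lower after (-4.34) differentiation. Arhgdib, a gene best known from blood cells, fell in both lines and kept a line difference of -3.60 ± 0.09 (SE, limma adjusted p = 3.67e-10), with 5760 ± 578 and 1276 ± 90.7 in white and 491 ± 18.2 and 84.8 ± 13.9 in brown cells (SD, n = 3).

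Hox genes of different clusters went opposite ways. Of 23 tested Hox genes, 13 (56.5%) were higher in brown and 5 (21.7%) higher in white, against 26.5% and 21.3% of all genes, and the median was 0.55. Neighbouring genes of the C cluster were higher in brown at both stages: Hoxc4, Hoxc5, Hoxc6, Hoxc8, Hoxc9 and Hoxc10 formed a run of 6 adjacent tested genes with 1.03 to 7.30 before and 1.18 to 5.85 after differentiation. Hoxc8 was at 3779, 3811 and 4877 and then 1313, 1450 and 1532 in brown cells and at 0.687 to 20.7 on the 6 white arrays. Its difference fell by 1.45 between the stages and it was not alike, although brown remained at least 123-fold and at least 38.2-fold higher. Hoxc13, at the far end of the same cluster, was lower in brown by -3.27 and -1.99. In the D cluster, Hoxd3, Hoxd8 and Hoxd9 were lower in brown, together with the noncoding Hoxd3os1 and the predicted gene Gm38462 that lie among them, a run of 5 tested genes.

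Hoxd8 and Hoxa9 were the alike Hox genes. Hoxd8 was at 1695, 1662 and 1780 and then 1940, 1819 and 1924 in white cells and at 45.9, 23.2 and 63.5 and then 55.2, 49.3 and 81.5 in brown cells, with a line difference of -4.77 ± 0.16 (SE, limma adjusted p = 4.28e-09). White arrays were high and flat over differentiation and brown arrays lay near the percentile, and a second probe set gave -4.94. Hoxa9 was at 130 ± 9.09 and 386 ± 16.3 in brown and at 4.77 ± 4.40 and 32.5 ± 7.70 in white cells (SD, n = 3), with a line difference of 2.95 ± 0.12 (SE, limma adjusted p = 1.25e-08), but its other probe set above the percentile gave 0.74. In the A cluster Hoxa5 differed by 1.67 and 0.73 and Hoxa7 by -0.66 and -0.52, and in the B cluster Hoxb6 differed by 2.92 and 2.16.

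**Figure D3:**
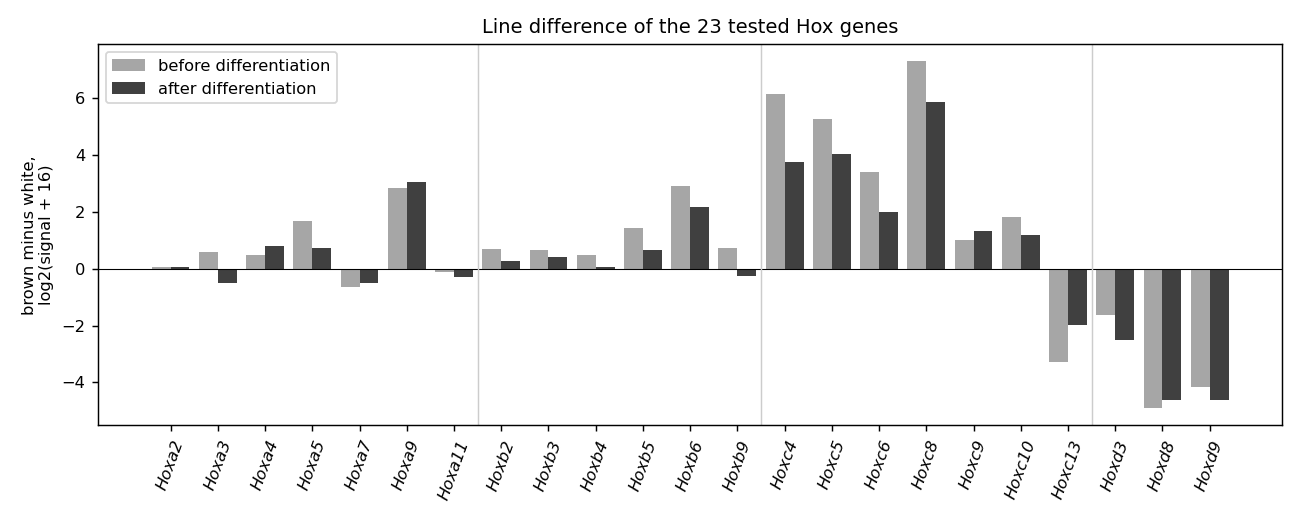
Brown minus white difference on log2(signal + 16) of each of the 23 tested Hox genes before (light bars) and after differentiation (dark bars), ordered by cluster and number, with lines between clusters A, B, C and D. Hoxc4 to Hoxc10 are above 0 and the D cluster genes below 0 at both stages, with Hoxc8 at 7.30 and 5.85 and Hoxd8 at -4.90 and -4.64.

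Promoter sequence from RefSeq (build GRCm38.p6) is shown for Zic1 and Hoxd8, patterning genes held in opposite directions, and for Mdm2 and Slc35e3, neighbours on chromosome 10 that were both held higher in white. Each runs 5' to 3' on the strand of the gene from 250 bases before the start of the transcript to 50 bases after it, with every CG pair in capitals. Zic1 is at chr9:91365719-91366018 on the minus strand, Hoxd8 at chr2:74704365-74704664 on the plus strand, Mdm2 at chr10:117710709-117711008 and Slc35e3 at chr10:117746309-117746608, both on the minus strand.
Zic1: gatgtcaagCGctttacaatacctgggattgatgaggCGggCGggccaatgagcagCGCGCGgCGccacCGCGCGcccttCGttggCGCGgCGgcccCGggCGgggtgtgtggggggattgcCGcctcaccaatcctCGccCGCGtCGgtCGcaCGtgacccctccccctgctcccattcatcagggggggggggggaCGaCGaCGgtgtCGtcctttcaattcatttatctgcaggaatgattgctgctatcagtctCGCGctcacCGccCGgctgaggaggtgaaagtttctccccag
Hoxd8: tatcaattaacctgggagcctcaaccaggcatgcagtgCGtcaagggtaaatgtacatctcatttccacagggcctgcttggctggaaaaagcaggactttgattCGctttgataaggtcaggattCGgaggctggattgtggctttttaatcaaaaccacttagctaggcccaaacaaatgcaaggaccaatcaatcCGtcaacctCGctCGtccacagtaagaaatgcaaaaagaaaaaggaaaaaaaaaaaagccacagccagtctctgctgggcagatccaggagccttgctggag
Mdm2: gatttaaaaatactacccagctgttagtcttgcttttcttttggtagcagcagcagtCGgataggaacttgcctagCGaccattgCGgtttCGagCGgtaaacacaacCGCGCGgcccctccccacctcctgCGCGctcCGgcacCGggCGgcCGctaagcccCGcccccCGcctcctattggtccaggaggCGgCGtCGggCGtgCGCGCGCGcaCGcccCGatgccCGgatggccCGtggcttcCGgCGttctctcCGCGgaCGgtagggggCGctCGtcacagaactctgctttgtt
Slc35e3: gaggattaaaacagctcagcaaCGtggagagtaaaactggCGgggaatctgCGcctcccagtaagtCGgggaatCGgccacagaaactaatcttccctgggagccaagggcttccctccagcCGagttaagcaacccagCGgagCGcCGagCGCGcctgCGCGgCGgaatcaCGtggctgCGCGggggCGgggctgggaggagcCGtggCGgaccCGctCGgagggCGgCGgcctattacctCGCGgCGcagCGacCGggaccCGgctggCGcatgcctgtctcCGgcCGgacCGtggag
Zic1, Mdm2 and Slc35e3 hold 31, 35 and 34 CG pairs and Hoxd8 holds 6. The promoters of 10988 tested genes had a median of 20 CG pairs with quartiles of 11 and 28, so that of Hoxd8 was below the lower quartile and the other 3 were above the upper one. In the 32851 promoters of the same length in the RefSeq table the median was 7 CG pairs, 11.7% held 30 or more and 47.9% held 6 or fewer. The letters TATAAA were in none of the 4 windows on either strand and in 13.6% of all promoters in the table. A promoter was found for 136 of the 173 alike genes higher in brown (78.6%) and for 137 of the 173 higher in white (79.2%), under the 80% needed, so a comparison of CG content between these classes is void. The share was 79.9% over all tested genes, also under 80%, so the place of the 4 promoters among them is only a description.

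Mdm2, the ubiquitin ligase that degrades p53, lay in a stretch of neighbouring genes that were all higher in white. In the order of the mouse reference, 8 adjacent tested genes on chromosome 10, Lyz2, Lyz1, Cpsf6, Cpm, Mdm2, Slc35e3, Nup107 and Rap1b, were alike and higher in white. It was the only run of 3 or more adjacent alike genes in 1 direction among the 13675 genes that could be placed. There were 14 runs of 2, among them Cct2 and Yeats4 close by. When genes of at least 1 log2 unit at both stages were counted without the limit on the interval, the stretch grew to 13 adjacent genes from Cct2 to Mdm1, the longest of 14 such runs of 3 or more. Beyond Mdm1 the next tested genes, Dyrk2 and Cand1, differed by -0.09 and -0.17. On the other side of Cct2, D630029K05Rik differed by 0.29 before and -2.22 after, 4933412E12Rik and Rab3ip were lower in brown by over 1 log2 unit at both stages, and Cnot2 differed by 0.41 in the line difference.

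The level in white cells ranged from low to high along the stretch, with means of 75.3 and 230 for 4933411E08Rik, 281 and 252 for Cpm and 12774 and 7798 for Nup107 before and after differentiation. Mdm2 was at 9177, 10007 and 9923 and then 10128, 10097 and 8761 in white cells and at 1136, 1188 and 1204 and then 878, 752 and 796 in brown cells. White arrays were all at least 8761 and brown arrays at most 1204, with a line difference of -3.29 ± 0.11 (SE, limma adjusted p = 2.59e-09). Slc35e3, a solute carrier, was at 9290, 9520 and 9500 and then 11864, 11664 and 9956 in white cells and at 716, 763 and 711 and then 814, 813 and 758 in brown cells, a line difference of -3.72 ± 0.07 (SE, limma adjusted p = 2.69e-11). Yeats4, a reader of acetylated histones, differed by -3.35 ± 0.07 and Nup107, a nuclear pore protein, by -3.22 ± 0.09 (SE). Smaller differences were seen for Cct2, a subunit of a chaperonin, at -1.61 ± 0.10 and Rap1b, a small GTPase, at -1.56 ± 0.11 (SE). Other probe sets of Rap1b gave -2.26 and -2.56. Mdm1, at the other end of the stretch from Cct2, was at -1.94. The probe sets of Cpsf6 disagreed, with -1.66 from the brightest and -0.15 to -4.74 from the others, whereas other probe sets of Mdm2, Cpm, Rap1b and Cct2 gave -1.52 to -4.002. Mdm2 left the alike class in the setting that dropped probe sets with the suffix _a_at, _s_at or _x_at. These are grouped here as less specific by suffix alone. The brightest probe set of Mdm2 has the suffix _a_at. A dimmer one that was kept, at a mean signal of 56.65, still gave -1.93 before and -1.54 after differentiation.

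**Figure D4:**
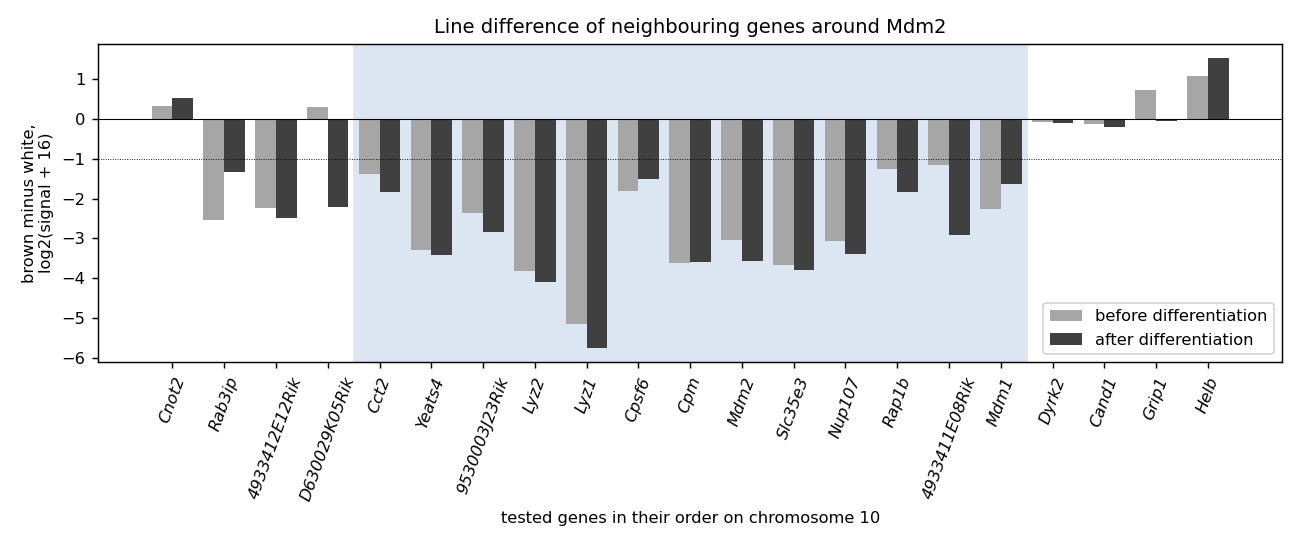
Brown minus white difference on log2(signal + 16) before (light bars) and after differentiation (dark bars) of the 13 adjacent tested genes from Cct2 to Mdm1 (shaded) and of 4 tested genes on each side, in their order on chromosome 10, with a dotted line at -1. Every shaded gene is below the dotted line at both stages, with Lyz1 lowest at -5.14 and -5.74, and Dyrk2 and Cand1 lie near 0.

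Lyz1 and Lyz2, the lysozymes that serve as macrophage markers, were part of this stretch. Lyz1 was at 2268, 2402 and 2775 and then 1342, 1356 and 1348 in white cells and at 56.3, 47.8 and 60.3 and then 7.17, 10.4 and 11.4 in brown cells. Their near-identical sequences mean that signal may be shared between the 2 genes, and Lyz1 was not alike without the less specific probe sets. Fewer cells of a type and less RNA per cell cannot be told apart in RNA from whole cultures. Of the 18 macrophage and blood cell markers on the array, 6 were at or below the percentile on all 12 arrays, among them Itgam and Mpeg1, and Ptprc, the leukocyte antigen CD45, was above it on 1 array. Others were above it: Cd14, Csf1r and Laptm5 on 12 of 12 arrays, Cd68 on 10, and Cd53 on the 6 white arrays alone. Cd14 was at a mean of 452 in white preadipocytes and at 130 to 236 in the other groups, Csf1r at 97.1 to 127 and Laptm5 at 65.3 to 87.3. Without the lysozymes, the summed signal of the macrophage and blood cell markers was still higher on white arrays at each stage. It was 1079 to 1138 on white and 672.5 to 772 on brown arrays before differentiation. After differentiation it was 750 to 913 on white and 633 to 668 on brown arrays. Cd14 and Cd53 were higher in white at each stage, with Cd53 at means of 154.8 and 77.8 in white and 21.1 and 13.48 in brown cells. Cd68 was lower in white, at 35.13 and 84.28 against 75.98 and 109, as was Laptm5, at 68.49 and 65.3 against 70.17 and 87.35. Of the 11 tested markers, lysozymes included, 5 passed the line test as higher in white and 1 as higher in brown.

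Of 26 tested p53 pathway and Cdkn2 genes, 8 (30.8%) were higher in brown and 9 (34.6%) in white, against 26.5% and 21.3% of all genes, with a median of 0.01 that turned to -0.18 when arrays were set to equal medians. Cdkn2a, which encodes the p16 and p19Arf inhibitors, was alike and higher in brown, at 1098, 1049 and 877 and then 1018, 840 and 724 in white cells and at 5510, 5450 and 4982 and then 3478, 4494 and 3206 in brown cells. Its line difference was 2.24 ± 0.12 (SE, limma adjusted p = 1.11e-07). Zmat3, a p53 target that binds RNA, was alike and higher in white at -1.37 ± 0.08 (SE, limma adjusted p = 1.58e-07). Other targets gave -0.30 and -0.88 (Cdkn1a), -0.84 and -1.10 (Ccng1) and 1.90 and 1.16 (Trp53inp1) before and after differentiation.

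Psmb9 and H2-D1 were the alike genes among 17 tested genes of MHC and antigen presentation, of which 11 (64.7%, against 26.5% of all genes) were higher in brown and 1 higher in white. Psmb9, a subunit of the immunoproteasome, was at 45.5, 77.5 and 67.6 and then 156, 98.3 and 113 in white cells and at 1891, 1788 and 1490 and then 2978, 3160 and 3307 in brown cells. It stayed apart by 4.47 and 4.53, and the line difference was 4.50 ± 0.13 (SE, limma adjusted p = 1.24e-09). H2-D1, a class I heavy chain, differed by 1.44 ± 0.08 (SE, limma adjusted p = 2.17e-07), but it has near-identical relatives and was not alike without the less specific probe sets. Psmb8 and Tap1, which lie beside Psmb9, differed before and after differentiation by 4.997 and 4.18 and by 3.89 and 2.37. Of 31 tested interferon response genes 27 (87.1%, against 26.5% of all genes) were higher in brown. The median difference of these 31 fell from 3.75 before to 0.84 after differentiation. None was alike, beside 2.52% of all tested genes. Ccl9, a chemokine, was alike at 3.21 ± 0.12 (SE, limma adjusted p = 7.26e-09), with 1074 ± 95.9 and 193 ± 29.6 in white and 12212 ± 609 and 1557 ± 51.5 in brown cells (SD, n = 3).

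Among other transcription factors, more homeobox genes outside the Hox clusters were higher in white (19 of 40 tested, 47.5%) than in brown (6, 15.0%). The shares of all genes were 21.3% and 26.5%, and the median of these 40 was -0.37 beside 0.04. Prrx1, a factor of limb and connective tissue mesenchyme, was alike at -1.11 ± 0.07 and Hhex at 1.95 ± 0.19 (SE). Osr1, a factor of connective tissue precursors, was at 1371, 1406 and 1414 and then 274, 270 and 207 in white cells and at 233, 192 and 138 and then 27.6, 33.8 and 19.6 in brown cells, a line difference of -2.73 ± 0.13 (SE, limma adjusted p = 5.88e-08). Id3, an inhibitor of basic helix-loop-helix factors, was higher in brown at 1.86 ± 0.10 and Id4 lower at -1.48, while Twist2, a repressor of mesenchymal differentiation, was lower at -1.41. Runx3 was alike and higher in brown at 2.78 ± 0.17 (SE), but its other probe set gave 0.77 before and -0.59 after differentiation. The forkhead factors Foxd1 and Foxs1 were held higher in white at -1.65 ± 0.08 and -1.35 ± 0.08 (SE).

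Of 28 tested matrix proteases and their inhibitors 2 were alike, and of 49 other matrix proteins 2, beside 2.52% of all tested genes. Timp3, an inhibitor of matrix proteases, was at 414 ± 9.85 and 387 ± 30.6 in brown and 34.4 ± 3.22 and 23.4 ± 12.8 in white cells, and Mmp11, a matrix protease, was at 263 ± 58.0 and 673 ± 126 in brown and 762 ± 66.2 and 2193 ± 260 in white cells (SD, n = 3). Thbs1 was alike and higher in brown (1.79 ± 0.11, SE) and Tnxb, tenascin XB, higher in white (-2.02 ± 0.07, SE). Of 45 tested growth factors and their receptors, 3 (6.67%) were higher in brown and 21 (46.7%) in white, against 26.5% and 21.3% of all genes. The median of these 45 was -0.46, and none was alike. Of 35 tested cell cycle genes 29 (82.9%, against 26.5% of all genes) were higher in brown. The median difference of these 35 was 0.23 before and 2.82 after differentiation, and none was alike. Mcm5, a subunit of the replicative helicase, differed by 0.43 and 5.29.

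Of the 346 alike genes, 203 (58.7%) moved by less than 1 log2 unit over differentiation in both lines, close to the 62.3% of all tested genes. A further 42 rose and 65 fell by at least 1 log2 unit in both lines, and 36 moved otherwise. Of the 173 higher in brown, 35 (20.2%) rose and 9 (5.20%) fell by at least 1 log2 unit in both lines, and of the 173 higher in white, 7 (4.05%) rose and 56 (32.4%) fell, against 5.48% and 4.66% of all tested genes that rose and fell so. The limit on the interval requires the change of an alike gene to be similar in the 2 lines, so these shares are partly fixed by the rule and are a description. Ppargc1b, a relative of Ppargc1a, rose from 157, 165 and 160 to 1932, 1758 and 1448 in white cells and from 612, 562 and 538 to 8123, 7661 and 7326 in brown cells. Oplah, an enzyme of glutathione turnover, Itpka, an inositol phosphate kinase, and Tcim also rose in both lines, with line differences of 3.41, 1.80 and 1.03. Gas2, a protein of the cell cortex, fell from 5799, 6245 and 5802 to 571, 529 and 511 in white cells and from 2731, 2660 and 2758 to 254, 235 and 248 in brown cells, with a line difference of -1.10 ± 0.06 (SE, limma adjusted p = 1.25e-07) that was -0.11 on a dimmer probe set. Ptgs2, the inducible cyclooxygenase, fell from a mean of 1288 to 87.0 in white and from 370 to 23.2 in brown cells, and Sytl2 and Nceh1 fell in both lines as well. A dimmer probe set of Ptgs2 did not hold the line difference, with -0.90 before and 0.55 after differentiation. Dimmer probe sets of Nceh1 gave line differences of -0.25 and -1.39.

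The 4 most opposed of the genes called in opposite directions had line differences with a large error, which takes in the gap between the stages. Agt, angiotensinogen, differed by 6.90 before and -3.49 after differentiation, Apod by 4.40 and -6.14, Camp by 3.83 and -6.30 and Angptl1 by 3.55 and -3.57. Each was low in white preadipocytes and rose in white cells but fell in brown cells, with Agt at 11.8 ± 7.29 and 4479 ± 157 in white and 3249 ± 377 and 387 ± 70.03 in brown cells (SD, n = 3). Their line differences of 1.70 ± 1.58 (Agt), -0.87 ± 1.61 (Apod), -1.23 ± 1.54 (Camp) and -0.01 ± 1.09 (Angptl1, all SE) did not pass the test.

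In a class chosen after the values were seen, 105 genes (0.763%) were above the percentile on all 6 brown arrays and on no white array, and 47 (0.342%) on all 6 white arrays and on no brown array. Of these, 21 and 8 were alike. Beside Mme, Zic1, Hoxc8 and Prdm16, the brown set held Kng1 (kininogen, 8.06 before and 4.58 after), Acvr1c (the activin receptor ALK7, 2.64 and 7.15), St6galnac2 (a sialyltransferase, 4.66 and 4.86), Zfp518a (4.55 and 4.66), Sh3bgrl2, Mboat1 and Trmt9b. The white set held Ifi202b (-7.85 and -5.35), Slit2 (a guidance ligand, -6.41 and -4.18), Cck (cholecystokinin, -7.33 and -1.63), Vstm2a (-4.66 and -4.52), Cpm (-3.61 and -3.59) and Elavl2. St6galnac2 was at 513 ± 89.9 and 542 ± 87.7 in brown and 4.72 ± 1.38 and 3.06 ± 0.819 in white cells, and Vstm2a at 461 ± 19.02 and 588 ± 41.9 in white and 2.93 ± 2.82 and 12.3 ± 13.7 in brown cells (SD, n = 3). The noncoding gene 3110039M20Rik was in the brown set at 5.35 and 5.45, beside its neighbours Prkd1 (5.22 and 6.12) and Nova1 (1.97 and 2.53).

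Y-linked genes were in the brown set too. Kdm5d was at 599, 582 and 780 and then 539, 480 and 599 in brown cells and at 0.839 to 19.8 on the 6 white arrays, Uty differed by 4.29 and 4.50, and Eif2s3y by 5.15 and 6.42. Brown arrays were high at both stages and no white array was above the percentile. Xist, the noncoding RNA of the inactive X chromosome, was near the percentile in all 4 groups, with means of 34.0 to 60.4. Of 6 tested X-linked partners of Y genes, 3 (50%, against 21.3% of all genes) were higher in white, among them Usp9x (-1.08 and -0.67) and Eif2s3x (-0.77 and -0.11).

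Some chromosomes were shifted as a whole. The median line difference was 0.46 over the 433 tested genes of chromosome 16 (0.54 before and 0.38 after differentiation), 0.38 over the 815 of chromosome 4 (0.42 and 0.35) and 0.25 over the 557 of chromosome 15 (0.26 and 0.20), against 0.04 over all genes. On chromosome 16, 78.5% of genes were above 0, and the 15 alike genes there were higher in brown (3.46% of its tested genes, against 1.26% of all). On chromosome 4, 26 alike genes (3.19%) were higher in brown and 6 (0.736%) in white, and on chromosome 15, 13 (2.33%) and 1 (0.180%). Chromosomes X, 3 and 6 were below 0 by similar amounts, at -0.16, -0.15 and -0.14, followed by 13 and 12 at -0.13 and -0.11. With arrays scaled to the hybridization controls, X, 3 and 6 were at -0.06, -0.05 and -0.03 while all genes had a median of 0.14. The X chromosome held 1 alike gene higher in brown and 14 (3.29%) higher in white. With arrays set to equal medians, chromosomes 16, 4 and 15 stayed above 0 at 0.27, 0.18 and 0.07 while all genes had a median of -0.14. Genes of a chromosome are not independent, and no test was made of these medians.

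**Figure D5:**
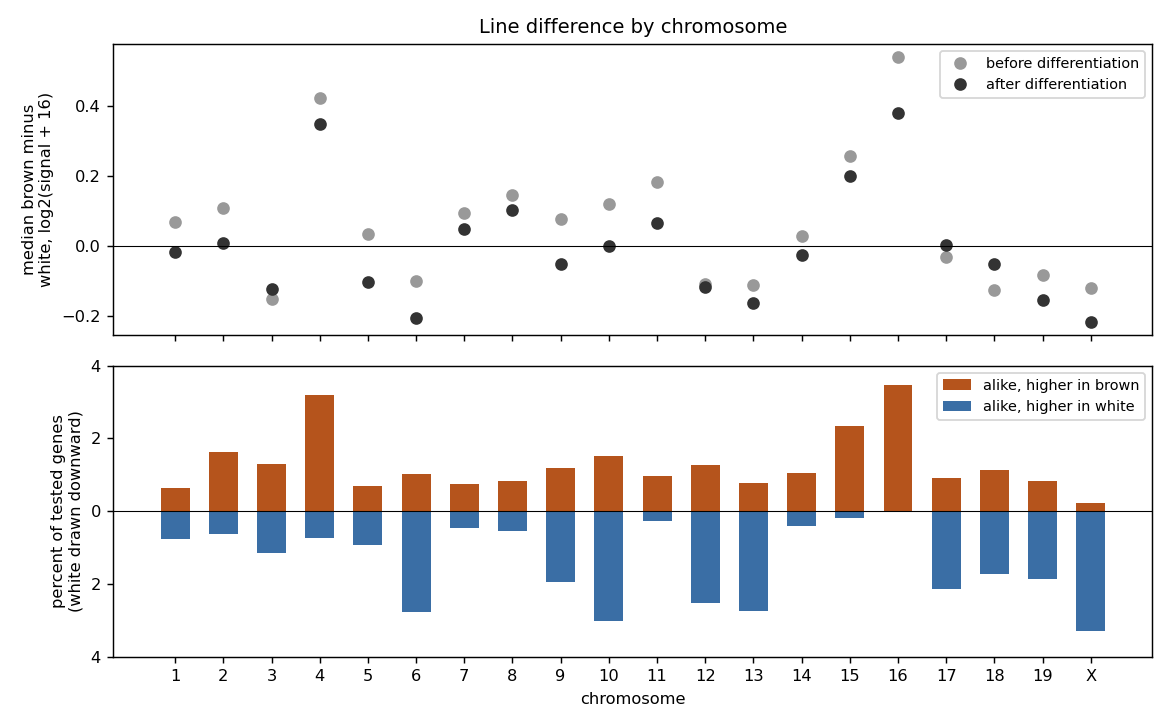
Median brown minus white difference of the tested genes of each chromosome except Y before (light points) and after differentiation (dark points), on log2(signal + 16), and below it the percent of tested genes that were alike and higher in brown (upward bars) or in white (downward bars). Of the chromosomes drawn, 16, 4 and 15 lie highest at both stages, at 0.54, 0.42 and 0.26 before and 0.38, 0.35 and 0.20 after.

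Markers of other cell types also differed between the lines. The summed signal of 18 neural and glial markers was 1861 to 2273 on brown and 688 to 1020 on white arrays, with the alike gene Cnp, a myelin enzyme, at 850 ± 35.8 and 422 ± 103 in brown and 29.1 ± 15.7 and 8.81 ± 0.852 in white cells (SD, n = 3). Sox10, which defines glial cells, was above the percentile on 5 of 12 arrays and at most 130. Its mean after differentiation was 97.05 in brown and 14.06 in white cells. Map2 (672.7 and 121.3) and Erbb3 (179.8 and 29.02) were also higher in brown at that stage. Some markers, such as Snap25 (8.545 and 72.45), were lower in brown there. Of the 12 tested neural and glial markers, 6 (50%) passed the line test as higher in brown and 0 as higher in white. The shares of all genes were 26.5% and 21.3%. The sum of 18 endothelial markers was 1013 to 1354 on brown and 457 to 736 on white arrays, carried by Plvap (1.78 and 3.30) and Egfl7 (1.96 and 1.77), while Pecam1 and Vwf were above the percentile on 0 of 12 arrays. Sums of 19 epithelial, 26 skeletal muscle and 18 chondrocyte and osteoblast markers overlapped between the lines in at least 1 stage or changed order between stages. The part of other cells in the line difference was not tested.

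For 94 of the 173 alike genes higher in brown and 98 of the 173 higher in white, probe sets that the rule did not use lay above the percentile. Of 185 such probe sets of the brown genes, 146 (78.9%) were higher in brown at both stages and 66 (35.7%) by at least 1 log2 unit. Of 172 of the white genes, 155 (90.1%) were higher in white at both stages and 59 (34.3%) by at least 1 log2 unit. Their median line differences were 0.92 and -0.999, smaller than those of the brightest probe sets. These probe sets were read from the same RNA.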

How the data were processed

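RNA of 12 samples of 2 mouse cell lines was labelled by 3' in vitro transcription and measured on 12 Affymetrix mouse expression arrays, per the labels' protocols. The authors deposited linear signal intensities, 1 for each probe set on each array. The submitters' processing notes name Affymetrix Expression Console, while the algorithm and the genome build were not stated in the sources used here. The 2% trimmed mean of the deposited values was 500.0 on every array, so a shift of all genes together cannot be seen.

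Of 45101 probe sets, 34958 carried 1 gene symbol, 932 several and 9211 were unnamed in the platform annotation used. The probe set with the highest mean stood for each of 18194 genes, and log2(signal + 16) was fitted with limma 3.58.1 in R 4.3.3: line with stage as a block for the line difference (9 residual degrees of freedom), and 4 group means for the differences at each stage and between stages (8). Tests were two-sided, with Benjamini-Hochberg adjustment over 13753 genes and calls at 0.05. The fits were tested on simulated data. Tables were made in Python 3.11.15 (pandas 2.3.3, numpy 2.4.6) and figures in matplotlib 3.10.9. Signals of arrays have no counting error, and 3 arrays a group limit the precision.

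The comparison, the 36 gene lists (1231 entries, 1140 on the array) and the tests were chosen with earlier results of these data known. Named genes were the 12 largest alike differences in each direction, up to 4 alike members of each list (or up to 2 called ones), a few adipocyte, patterning and sex-linked genes, the 4 most opposed genes, the 4 alike genes that rose most and the 4 that fell most, and genes of neighbouring runs. Other genes named, among them further Hox genes, Grb10, Ndn, Cdh13, Itgbl1, Cspg4, Pdgfra, Cidea, Chchd10, Psmb8, Tap1, Prkd1, Nova1, Elavl2 and those found in 1 line alone, were chosen after their values were seen. Positions came from the order of genes in the RefSeq table, and sequences from RefSeq promoters (GRCm38.p6). Alternatives covered the pseudocount, scaling, filter, probe set rule, fit, limits of the class, a replicate block and leaving out each array, and scaling to the hybridization controls was added after seeing the data.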

Additional observations from a re-analysis of the deposited data

Results flagged for a closer look

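The genes here had a line difference that itself differed between the stages, by the limma test of that difference in the fit of 4 group means (Benjamini-Hochberg adjusted over all tested genes). Each value is the brown minus white difference after differentiation less that before it, on log2(signal + 16). Such a difference was found for 7026 of the 13753 genes (51.1%).

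The rule for alike genes bounds this difference. Those higher in brown had -0.42 (Cdkn1c), -0.50 (Ppargc1a), 0.44 (Ppargc1b), -0.57 (Ccl9), 0.46 (Id3), -0.53 (Itpka) and -0.57 (Mgst2). Those higher in white had -0.53 (Mdm2), -0.60 (Lyz1), 0.30 (Cpsf6), -0.58 (Rap1b), -0.44 (Cct2), 0.63 (Mdm1), -0.28 (Zmat3) and -0.25 (Psat1).

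Hox genes higher in brown mostly lost part of their difference with differentiation, with -2.38 for Hoxc4, -1.20 for Hoxc5, -1.45 for Hoxc8 and -0.94 for Hoxa5. Hoxc13 had 1.28, Hoxd3 -0.87 and the noncoding Hoxd3os1 -1.04. Other patterning, imprinted and sex-linked genes had 0.98 (Prdm16), -1.12 (Tbx15), -1.67 (Grb10), -1.59 (Ndn), -1.36 (Dlk1), 1.27 (Eif2s3y), 0.66 (Eif2s3x) and 0.41 (Usp9x).

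Adipocyte genes that were already high in brown preadipocytes had -8.95 (Adipoq), -1.88 (Fabp4) and -2.19 (Pparg). Brown fat and late genes had 3.81 (Ucp1), 6.68 (Cidea), 3.99 (Chchd10), 2.43 (Lrg1) and 4.51 (Acvr1c). The replication gene Mcm5 had 4.87, with means of 6691 before and 202 after differentiation in white cells and 8998 and 8533 in brown cells. The genes called in opposite directions had -10.4 (Agt), -10.5 (Apod), -10.1 (Camp) and -7.12 (Angptl1).

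Surface, secreted and signalling genes had -5.42 (Pdgfra), 1.53 (Cspg4), 0.85 (Cdh13), 1.52 (Plvap), 2.22 (Slit2), 5.70 (Cck), -3.48 (Kng1) and 0.89 (Prkd1). Antigen presentation, interferon and p53 pathway genes had -0.82 (Psmb8), -1.51 (Tap1), 2.50 (Ifi202b), -0.58 (Cdkn1a) and -0.74 (Trp53inp1). Around the stretch on chromosome 10, Rab3ip had 1.20, D630029K05Rik -2.51 and 4933411E08Rik -1.76, and the glial marker Sox10 had 1.67.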

How the results depend on the processing

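The counts of genes called for the line difference stayed within 1.5 times under every setting run, and each leave-one-out fit gave 3338 to 3501 genes higher in brown and 2675 to 2872 higher in white. The alike class moved with its own limits: an interval within 0.5 left 41 genes higher in brown and 59 in white, one within 1.5 gave 310 and 261, at least 2 log2 units at each stage left 41 and 28, and at least 1.5-fold gave 505 and 485. With equal medians it held 112 and 271. Without single arrays it held 154 to 175 and 157 to 180. Membership moved more than the counts: of the 173 genes in each direction, the mean of probe sets kept 97 and 116, equal medians 99 and 155, a pseudocount of 64 kept 110 and 130, a pseudocount of 1 kept 113 and 142, and quantile normalization 116 and 165. Samples with the same replicate number did not deviate together (correlations -0.03 to 0.07), and a replicate block gave 3291 and 2638 line calls and 175 and 170 alike genes. A fit of 4 group means gave 4758 and 3945 line calls. Signs turned for genes with line differences near 0 or few good probe sets: Xist was at -0.10 and Apod at 0.35 with the mean of probe sets, Angptl1 was at 0.0030 with a pseudocount of 64, 0.14 with the mean of probe sets, 0.14 with hybridization controls and -0.46 to 0.43 without single arrays, and Dyrk2 was at 0.029 with hybridization controls. The cause of these changes was not tested. Signals below the 40th percentile give bounds only.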

Other observations

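Of 27 tested genes of the actin cytoskeleton and smooth muscle, 4 (14.8%) were higher in brown and 13 (48.1%) in white, against 26.5% and 21.3% of all genes, with a median line difference of -0.62 beside 0.04 for all genes. Actn1, an actin crosslinking protein, was the 1 alike member at -1.20. Of 41 tested detoxification enzymes, 5 (12.2%) were higher in brown and 13 (31.7%) in white. Mgst2, a microsomal glutathione transferase, was alike at 1.39 and Akr1b8, an aldose reductase relative, at -1.26. Of 28 tested matrix proteases and their inhibitors, 5 (17.9%) were higher in brown and 12 (42.9%) in white, with a median difference of 0.44 before and -1.69 after differentiation. Of 32 tested respiratory chain and ATP synthase genes, 11 (34.4%) were higher in brown and 2 (6.25%) in white. Their median of 0.15 turned to -0.06 with equal medians, and none was alike, beside 2.52% of all tested genes. Dlk1, an imprinted inhibitor of fat cell formation, fell in both lines, from 6452 to 779 in white and from 981 to 31.8 in brown cells.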
